A study of Mus musculus with 19 samples.

Results

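Chemokines and their receptors were followed in whole mouse kidney after unilateral ureteral obstruction (UUO), an operation that blocks urine flow from 1 kidney and leads to inflammation and scarring. Members were the rows of the deposited gene count matrix whose symbol begins as a Ccl, Cxcl, Cx3c, Xcl1, Xcr1, Ccr, Cxcr, Ackr or Ccrl2 name and that held at least 50 reads over the 19 libraries. Of 55536 genes in the matrix, 71 rows matched by name and 50 had enough reads, 32 of them ligands and 18 receptors. Among the latter, 14 were signalling receptors and 4 were atypical receptors. The members nearest above the minimum were Ccr6 with 55 reads and Ccr4 with 69, and the rows nearest below it were Ccl19-ps1 with 41 and Ackr1 with 40.

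The design text gives 3 groups of mice: obstructed kidneys with vehicle (7 libraries), obstructed kidneys with zalfermin, a long-acting analogue of the hormone FGF21 (8 libraries), and healthy kidneys (4 libraries). The sample labels word these differently. They give the condition of both obstructed groups as "MASH" and name the agent by a code number. The code was taken to be zalfermin because the group sizes match the design text. Labels call the healthy samples untreated, whereas the design text calls them vehicle. The sources used here do not give strain, sex, age, dose, length of treatment or days of obstruction. No genetic change is named for any group. The labels do not state that each library came from a separate animal, so p-values measure the spread between these libraries, which may be in part technical. The design implies 3 comparisons: what obstruction changed, what zalfermin changed in obstructed kidneys, and how treated obstructed kidneys stood against healthy ones.

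Chemokines are small secreted proteins that guide leukocytes along concentration gradients. They are named for the spacing of their first cysteines (CC, CXC, CX3C and XC), and each class is read by its own family of receptors coupled to G proteins. Inflammatory chemokines such as CCL2 and CXCL1 are induced by injury in epithelium, endothelium, fibroblasts and macrophages, and they recruit monocytes, neutrophils and T cells. Homeostatic chemokines such as CXCL12 keep resident cells in place. Atypical receptors bind chemokines without the usual signalling and take them up. In obstructed kidneys, monocyte and macrophage recruitment through CCL2 and CCR2 and through CX3CL1 and CX3CR1 has long been studied.

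The libraries held 12209122 to 14844103 assigned reads. Members took 0.0318% to 0.0456% of the reads of a healthy library, 0.128% to 0.159% of a vehicle library and 0.115% to 0.150% of a zalfermin library. Markers of kidney epithelium were high in every library, with a summed level of 19200 to 19700 CPM (a gene's reads as a share of the TMM-normalised library total) in healthy kidneys and 5295 to 9289 CPM in vehicle kidneys. The tissue label therefore met its defining markers. A pair of libraries stood apart on these genes. Vehicle replicate 6 was the lowest vehicle library for 16 of the 45 tested members, and its red blood cell markers summed to 542 CPM against 55.6 to 105 CPM in the other 6 vehicle libraries. Its mitochondrial reads made up 1.10% of the total, where the other obstructed libraries had 2.95% to 4.25% and the 4 healthy ones 8.77% to 10.2%. This share moved with obstruction, and its part in the differences from healthy kidneys was not tested. Zalfermin replicate 6 was the highest zalfermin library for 15 of 45 members, and its T and NK cell markers summed to 42.6 CPM against 15.1 to 22.9 CPM in the other 7. Where leaving out either library changed a call of a member in edgeR, the value without it is given. In bulk tissue, fewer cells of a type and less RNA per cell cannot be told apart.

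Promoter sequences of 5 of the ligands that were near 0 or low in healthy kidneys and high after obstruction are printed first, because they carry a letter pattern that few promoters share. The pattern is the kappaB consensus, the letters bound by NF-kappaB, and it was searched on both strands from 250 bases before to 50 bases after each RefSeq transcription start. The table of start sites held a window for 37 of the 50 members. The consensus occurred in 10 of the 43 windows of these members, against 4.51% of 32851 windows over all genes. The members with a match were Cxcl1, Cxcl2, Cxcl3, Cxcl10, Ccl9, Ccl20, Ccl27a, Ackr2, Ccrl2 and Ccr6. An interferon response pattern (GAAA, any 2 bases, then GAAA) occurred in the windows of Cxcl10, Cxcl14 and Ccl19, against 3.44% of all windows. Each line gives the 220 bases before the start, read 5′ to 3′ on the gene's own strand, with the matched letters in capitals (RefSeq, build GRCm38.p6).
Cxcl1, chr5:90891025-90891244 (plus strand): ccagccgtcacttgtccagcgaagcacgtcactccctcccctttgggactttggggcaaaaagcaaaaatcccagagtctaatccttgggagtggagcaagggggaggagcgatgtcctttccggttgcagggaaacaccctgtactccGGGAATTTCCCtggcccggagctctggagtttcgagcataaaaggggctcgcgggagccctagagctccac
Cxcl2, chr5:90903679-90903898 (plus strand): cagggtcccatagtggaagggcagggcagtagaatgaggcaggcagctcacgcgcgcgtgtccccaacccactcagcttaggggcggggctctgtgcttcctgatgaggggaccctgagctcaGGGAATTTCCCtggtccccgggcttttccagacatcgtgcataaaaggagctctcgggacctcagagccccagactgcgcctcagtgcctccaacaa
Cxcl3, chr5:90785881-90786100 (plus strand): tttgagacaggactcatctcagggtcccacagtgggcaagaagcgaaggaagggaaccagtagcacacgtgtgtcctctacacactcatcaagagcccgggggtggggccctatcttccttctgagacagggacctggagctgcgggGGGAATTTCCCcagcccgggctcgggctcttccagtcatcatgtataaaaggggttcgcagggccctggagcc
Cxcl10, chr5:92348890-92349109 (minus strand): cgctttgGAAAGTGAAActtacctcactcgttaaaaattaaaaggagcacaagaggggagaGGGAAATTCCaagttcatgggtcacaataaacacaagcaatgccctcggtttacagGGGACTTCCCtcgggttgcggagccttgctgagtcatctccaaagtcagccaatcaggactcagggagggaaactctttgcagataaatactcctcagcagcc
Ccl20, chr1:83116546-83116765 (plus strand): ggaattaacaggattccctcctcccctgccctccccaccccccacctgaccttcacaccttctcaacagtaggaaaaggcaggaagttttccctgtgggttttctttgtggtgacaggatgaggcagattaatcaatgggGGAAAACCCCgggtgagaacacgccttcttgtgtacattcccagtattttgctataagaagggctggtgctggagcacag

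The Cxcl1, Cxcl2 and Cxcl3 promoters shared the same run of matched letters, in Cxcl1 at 71 to 62 bases before the start, in Cxcl2 at 97 to 88 and in Cxcl3 at 73 to 64. In each, a match on the opposite strand overlapped it and lay 1 base away, so 11 letters are in capitals. Cxcl10 held 2 kappaB matches, at 159 to 150 and at 103 to 94 bases before the start, and the interferon pattern at 213 to 204. The Ccl20 match, 80 to 71 bases before the start, was on the opposite strand. A match is a description of the letters and shows no binding.

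**Figure D1:**
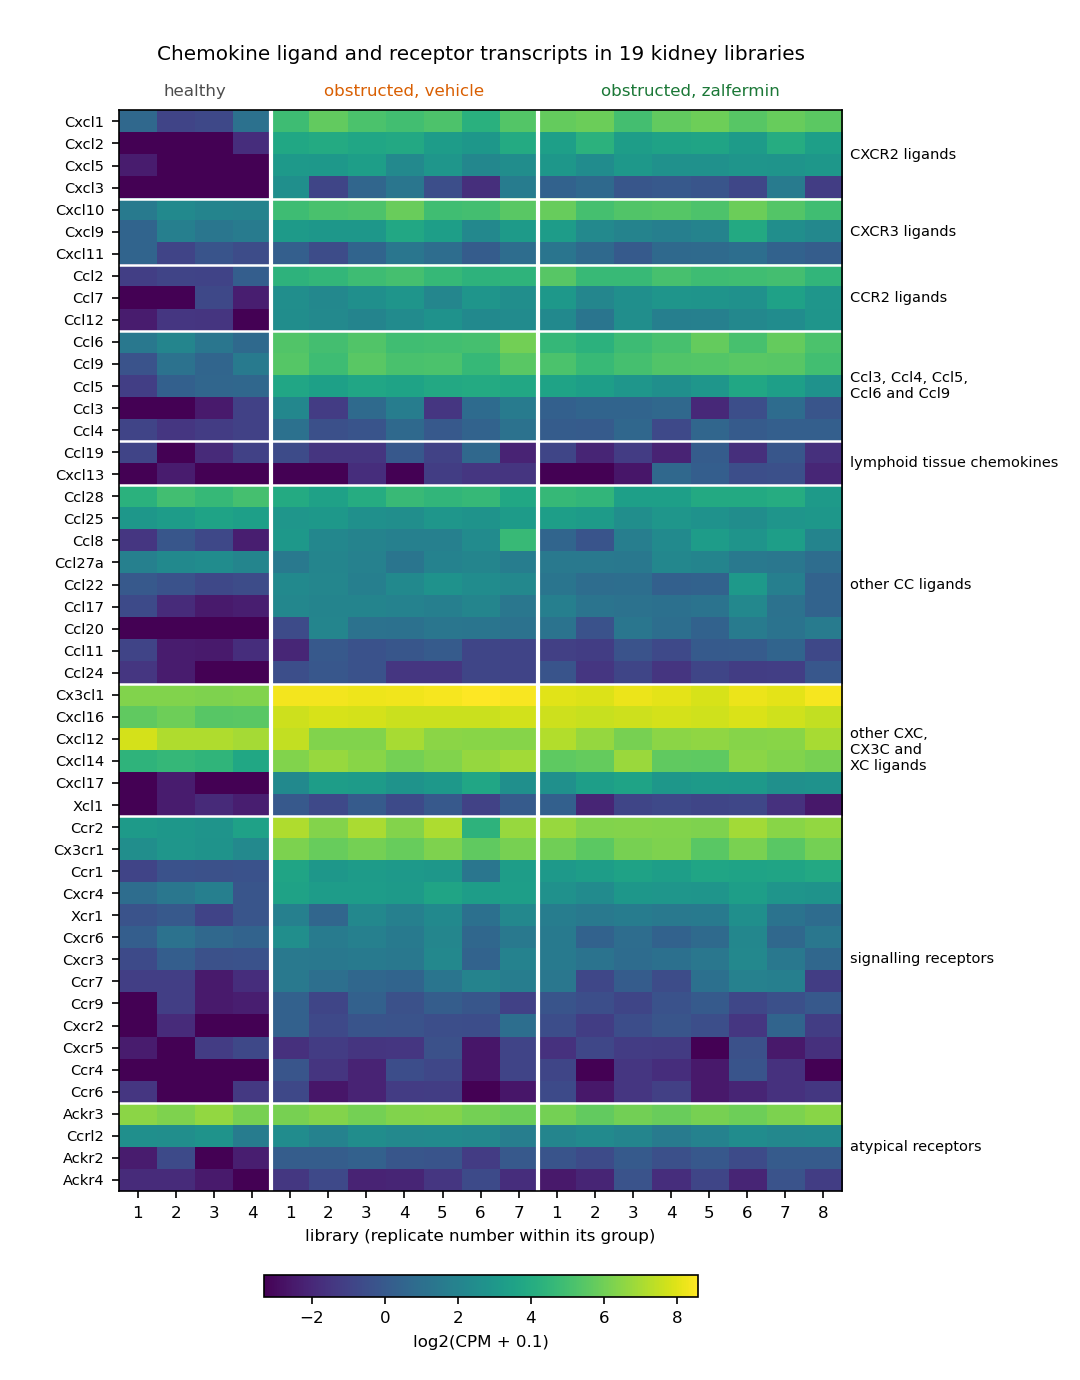
Level of 49 members (rows, by role) in the 19 libraries (columns, by group), as a colour scale of log2 CPM with a small constant added. Most ligand and receptor rows are dark in the 4 healthy columns and bright in the obstructed columns, while Cxcl12, Ccl25, Ccl28, Ccl27a, Ackr3 and Ccrl2 have their brightest cells in healthy columns.

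Obstruction raised most of the family. Among 45 members with enough reads to test, 37 were higher in vehicle than in healthy kidneys at an adjusted p under 0.05, 2 were lower (Cxcl12 and Ccl25) and 6 were not called (Cxcl11, Ccl19, Ccl28, Ccl27a, Ackr3 and Ccrl2). Over all 16026 genes tested in the same edgeR fit, 36.2% were called higher and 28.6% lower, or 64.8% in either direction. The median log2 fold change was 2.92 over the tested members and 0.09 over all tested genes. For 32 members the 7 vehicle libraries did not overlap the 4 healthy ones, and all genes gave 24.7% without overlap on the higher side and 19.5% on the lower side. At least 10 reads in every healthy library were present for 16 tested members. The other 29 had fewer in at least 1 healthy library, and many of them entered the test through the obstructed groups alone, so the count and the median over all tested members describe them and support nothing further. Among the 16, a choice that favours members well expressed in healthy kidneys, 10 were higher, 2 were lower and 4 were not called, with a median log2 fold change of 1.93. The 6 negative estimates of the family were all among these 16. The plot of fold changes by role shows 44 of them for both comparisons.

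**Figure D2:**
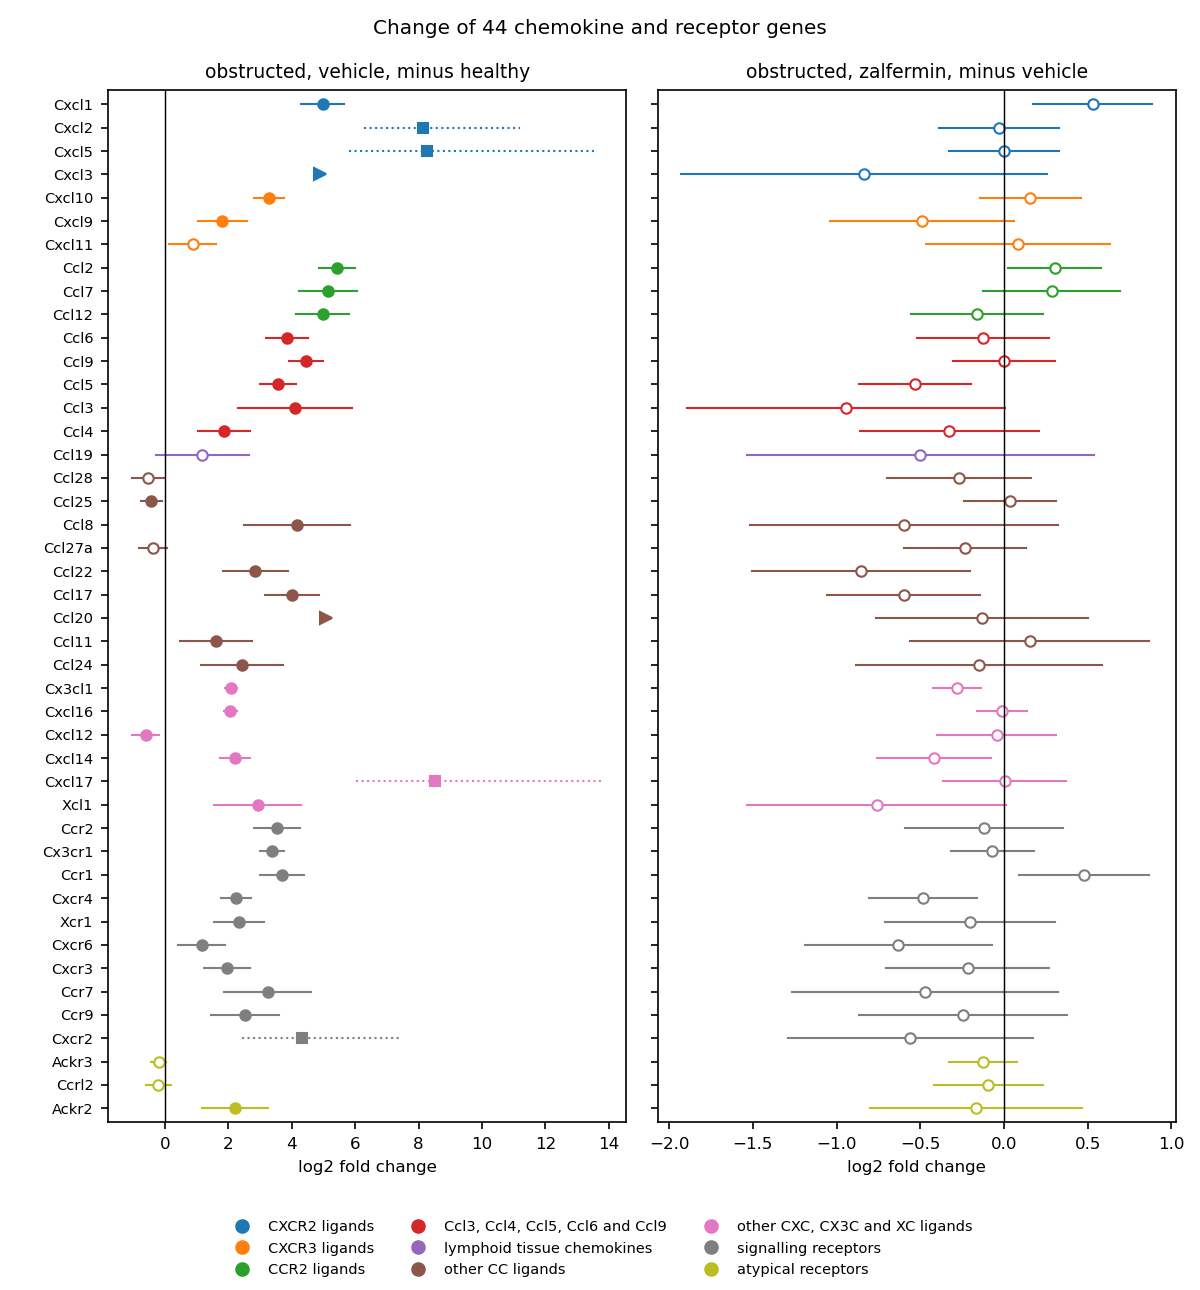
Log2 fold change of 44 tested members, vehicle against healthy on the left and zalfermin against vehicle on the right, with 95% intervals from the edgeR fit; filled points passed the adjusted p of 0.05. On the left the 36 called higher lie above 0 and the 2 called lower below it, with triangles for lower bounds (no healthy read) and squares with dotted counting intervals for members with 1 to 3 healthy reads; on the right no point is filled.

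Ligands of CXCR2, the receptor that brings neutrophils into tissue, were almost silent in healthy kidneys, and all 4 rose with obstruction. Cxcl1, a neutrophil attractant made by injured epithelium, stood at 1.51, 0.444, 0.506 and 2.06 CPM in healthy replicates 1 to 4 and at 18.5 CPM (lowest), 36.2 (median) and 51.5 (highest) in vehicle kidneys. Every vehicle library was above every healthy one, and Cxcl1 rose by 4.98 on the log2 scale (SE 0.35, adjusted p = 3.04e-11). Cxcl2, a second neutrophil attractant released early by macrophages, had 2 reads in the healthy group, all in replicate 4, and 7.83, 13.3 and 15.5 CPM (lowest, median, highest) in vehicle kidneys, a ratio of 283 with an exact 95% counting interval of 78.2 to 2339. Cxcl5, which binds the same receptor and is made largely by epithelium, had 1 healthy read and 4.42, 7.52 and 10.2 CPM in vehicle kidneys (ratio 311, counting interval 55.7 to 12310). These intervals and the limits for 0 reads cover counting error only. Cxcl3, the fourth ligand, had no read in any healthy library and 0.201 to 6.03 CPM in vehicle kidneys. Taking 3 reads over the healthy group, or 0.0673 CPM, as the most that 0 reads allow, it was at least 29.8-fold higher.

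Ligands of CCR2, the receptor of inflammatory monocytes, moved the same way, 3 of 3 higher. Ccl2, the principal monocyte attractant, stood at 0.356, 0.444, 0.422 and 1.08 CPM in healthy kidneys and at 20.4, 23.4 and 33.1 CPM (lowest, median, highest) in vehicle kidneys, with no overlap. Its log2 fold change was 5.44 (SE 0.29, adjusted p = 5.02e-13). Ccl7, a close relative of Ccl2, was at 0, 0, 0.506 and 0.0982 CPM in healthy and 4.24 to 7.36 CPM in vehicle kidneys and rose by 5.15 on the log2 scale (SE 0.46, adjusted p = 1.81e-09). Healthy replicate 3 held most of the healthy reads of Ccl7, and without it the estimate was 7.21. Ccl12, a mouse CCR2 ligand, was at or below 0.266 CPM in healthy and at 4.01, 5.27 and 6.56 CPM in vehicle kidneys, a rise of 4.98 on the log2 scale (SE 0.43, adjusted p = 9.38e-10). Markers of macrophages and monocytes summed to 162 to 198 CPM in healthy and 1157 to 1540 CPM in vehicle kidneys, 12 of 12 were higher with obstruction and none was at 0. Their part in these rises was not tested.

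A further group of inflammatory CC ligands, Ccl3, Ccl4, Ccl5, Ccl6 and Ccl9, which attract monocytes, macrophages and T cells, was also higher throughout, 5 of 5. Ccl9, made by macrophages and other myeloid cells, stood at 0.712, 2.13, 1.35 and 2.75 CPM in healthy and at 24.8, 36.7 and 46.7 CPM (lowest, median, highest) in vehicle kidneys. It rose by 4.44 on the log2 scale (SE 0.27, adjusted p = 5.00e-12), with every vehicle library above every healthy one. Ccl6, its neighbour on the chromosome and also myeloid, was at 2.58, 4.17, 2.44 and 1.57 CPM in healthy and at 30.6, 33.8 and 64.6 CPM in vehicle kidneys, the highest value being that of vehicle replicate 7. Its log2 fold change was 3.84 (SE 0.33, adjusted p = 1.04e-09), again with no overlap. Ccl5 (RANTES), made by T cells, NK cells and activated epithelium, stood at 0.356, 1.15, 1.43 and 1.47 CPM in healthy and 10.8, 13.2 and 15.4 CPM in vehicle kidneys, a rise of 3.57 on the log2 scale (SE 0.29, adjusted p = 3.15e-10). Of the macrophage inflammatory proteins, Ccl3 rose by 4.10, or by 5.79 without healthy replicate 4, which held most of its few healthy reads. Ccl4 rose by 1.86.

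The interferon-induced ligands of CXCR3, which attract activated T cells and NK cells, were called higher for 2 of 3 in edgeR. Cxcl10 stood at 2.85, 4.88, 4.05 and 3.83 CPM in healthy and 29.1, 35.6 and 58.0 CPM (lowest, median, highest) in vehicle kidneys. It rose by 3.29 on the log2 scale with no overlap (SE 0.24, adjusted p = 8.05e-11). Cxcl9 was at 1.33, 3.37, 2.44 and 2.95 CPM in healthy and 4.62, 8.83 and 13.9 CPM in vehicle kidneys, and rose by 1.81 (SE 0.39, adjusted p = 0.00035), also with no overlap. Cxcl11 was at 1.33, 0.444, 0.759 and 0.589 CPM against 0.588, 1.34 and 2.45 CPM, and these ranges overlapped. Its log2 fold change of 0.87 (SE 0.38, adjusted p = 0.0510) missed the threshold in edgeR. It was called higher under upper-quartile scaling (0.0400), voom (0.0216) and the 1 CPM filter (0.0477), and without vehicle replicate 1 (0.0471), 2 (0.0179) or 6 (0.0443) or healthy replicate 1 (0.0150). Of its annotated exon length, 41.7% overlaps a gene model on the opposite strand.

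Other CC ligands were mixed: 6 of 9 rose and Ccl25 fell. Ccl17 and Ccl22, the ligands of CCR4 and products of dendritic cells and macrophages, rose by 4.01 and 2.85 on the log2 scale. Without healthy replicate 1 the value for Ccl17 was 4.87. Ccl20, which binds CCR6 on B cells, Th17 cells and dendritic cells, had no healthy read and 0.561, 2.17 and 4.18 CPM (lowest, median, highest) in vehicle kidneys, at least 33.9-fold higher. Ccl8 was at 0.267, 0.799, 0.506 and 0.0982 CPM in healthy and 3.55, 4.38 and 25.7 CPM in vehicle kidneys. Its log2 fold change was 4.16 (SE 0.86, adjusted p = 0.000204), and without vehicle replicate 7, the library at 25.7 CPM, it was 3.46. The eosinophil attractants Ccl11 and Ccl24, ligands of CCR3, were low throughout and rose by 1.60 and 2.42. Without healthy replicate 1 these were 2.31 and 3.77, and Ccl11 lost its call when healthy replicate 2 or 3 was left out (adjusted p as high as 0.0697).

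The epithelial CC chemokines went the other way or were not called. Ccl25, the ligand of CCR9 best known from thymus and gut, stood at 7.65, 9.32, 11.9 and 10.3 CPM in healthy and 5.76, 7.52 and 9.26 CPM (lowest, median, highest) in vehicle kidneys, with overlap. It fell by 0.43 on the log2 scale (SE 0.17, adjusted p = 0.0284). That call was lost under upper-quartile scaling, with no filter on low counts, and when vehicle replicate 3 or 4 or healthy replicate 3 or 4 was left out (adjusted p as high as 0.133). Ccl28, a mucosal ligand of CCR10, was at 19.4, 31.2, 25.0 and 33.1 CPM against 11.1, 16.3 and 26.2 CPM. Its log2 fold change of -0.55 (SE 0.26, adjusted p = 0.0672) was not called, although DESeq2, limma-voom, relative-log scaling, a fit of these 2 groups alone, and the fits without vehicle replicate 4, vehicle replicate 6 (adjusted p = 0.0210) or healthy replicate 1 each called it lower. Ccl27a, the other CCR10 ligand, was at 3.47 to 5.40 CPM in healthy and 2.39 to 4.22 CPM in vehicle kidneys (log2 fold change -0.39, SE 0.22, adjusted p = 0.130 in edgeR), and voom called it lower (-0.52, adjusted p = 0.0303). Kidney epithelium markers, 8 of 8 of which fell with obstruction, moved with these genes, and their part was not tested.

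Cx3cl1 (fractalkine), a membrane-bound chemokine of epithelium and endothelium that holds cells bearing CX3CR1, stood at 79.5, 79.1, 77.8 and 79.2 CPM in healthy kidneys and at 304, 327 and 380 CPM (lowest, median, highest) in vehicle kidneys. The groups were far apart beside their spread, and it rose by 2.08 on the log2 scale (SE 0.10, adjusted p = 1.43e-13). Cxcl16, the other chemokine with a membrane anchor and the ligand of CXCR6, rose from 49.9, 61.4, 43.9 and 45.8 CPM to 195, 205 and 230 CPM, by 2.05 on the log2 scale (SE 0.10, adjusted p = 2.13e-13). Cxcl14, made by epithelium and fibroblasts, averaged 20.1 ± 4.67 CPM (SD, n = 4) in healthy and spanned 67.9 to 122 CPM in vehicle kidneys, and it rose by 2.20. Cxcl17, a mucosal chemokine, had 1 healthy read and 4.84, 8.00 and 12.8 CPM in vehicle kidneys (ratio 365, counting interval 65.4 to 14440). Xcl1, the lymphotactin made by NK and CD8 T cells, was at or under 0.169 CPM in healthy and 0.402 to 0.965 CPM in vehicle kidneys and rose by 2.92. The exon models of Cxcl16 and Xcl1 overlap a gene on the opposite strand over 18.3% and 18.7% of their length.

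Cxcl12, the homeostatic ligand of CXCR4 and ACKR3, was lower after obstruction. It stood at 227, 143, 143 and 123 CPM in healthy and 78.5, 87.8 and 177 CPM (lowest, median, highest) in vehicle kidneys, so the ranges overlapped. The log2 fold change was -0.61 (SE 0.22, adjusted p = 0.0163). Healthy replicate 1 had the highest value of all libraries, and without it the change was -0.39 with an adjusted p of 0.131. Ccl19, which draws dendritic cells and naive T cells through CCR7, was at or under 1.54 CPM in every library and was not called (log2 fold change 1.17, SE 0.75, adjusted p = 0.174).

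Levels of different genes can be set side by side only per length, so CPM was divided by the length of each gene's annotated exons. On this scale the 32 ligands summed to 86.6 ± 6.76 CPM per kb (SD, n = 4) in healthy kidneys, 405 ± 32.7 (SD, n = 7) in vehicle kidneys and 373 ± 30.3 (SD, n = 8) in zalfermin kidneys. In healthy kidneys Cx3cl1 made up 23.3% of this total, Cxcl12 22.3%, Cxcl16 19.2%, Cxcl14 12.6% and Ccl28 6.54%. The healthy repertoire was thus led by membrane-bound and homeostatic chemokines. In vehicle kidneys Cx3cl1 still led with 21.1%, ahead of Cxcl16 with 17.1% and Cxcl14 with 12.5%, and the inflammatory ligands Ccl2, Ccl6 and Cxcl1 followed with 5.42%, 5.30% and 4.64%. In zalfermin kidneys Cx3cl1 held 18.8% and Cxcl16 18.4%, Cxcl14 held 10.1%, and Cxcl1 held 7.34%. The stacked bars by library show this makeup.

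Of 14 signalling receptors, 11 had enough reads to test, and all 11 were called higher with obstruction, where 36.2% of all tested genes were. Some of them, such as Cxcr2 with 2 healthy reads, entered the test through the obstructed groups alone. The count is therefore a description. Ccr2, which brings Ly6C-high monocytes from blood, stood at 8.81, 7.81, 7.00 and 11.2 CPM in healthy and 20.2, 105 and 140 CPM (lowest, median, highest) in vehicle kidneys. Every vehicle library was above every healthy one, and the log2 fold change was 3.53 (SE 0.37, adjusted p = 1.91e-08). Cx3cr1, the fractalkine receptor of resident macrophages and patrolling monocytes, was at 5.78, 7.55, 6.83 and 4.71 CPM against 50.5, 68.5 and 76.5 CPM, a rise of 3.37 (SE 0.19, adjusted p = 1.58e-12). The ranges of Cx3cr1 did not overlap. Ccr1, the receptor of Ccl3, Ccl5, Ccl6 and Ccl9, rose by 3.69, from 0.445 to 0.710 CPM in healthy to 2.48 to 12.1 CPM in vehicle kidneys.

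The lowest vehicle value of both Ccr1 and Ccr2 was that of replicate 6, at 2.48 and 20.2 CPM, where the next lowest vehicle libraries had 7.64 and 81.7 CPM. The genes lie in 1 cluster on chromosome 9. The summed macrophage markers of replicate 6, 1420 CPM, were inside the vehicle range of 1157 to 1540 CPM. Its dendritic cell (51.2 CPM), T and NK cell (24.8 CPM) and B cell markers (5.09 CPM) had the lowest vehicle sums. The part of any cell type in its low values was not tested. The Cx3cr1 level of that library, 50.5 CPM, was also the lowest vehicle value, but close to the next at 55.1 CPM, as the plot of receptor levels shows. Without it the log2 fold changes of Ccr1 and Ccr2 were 3.80 and 3.66, and over the family 38 members were higher and 3 lower.

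**Figure D3:**
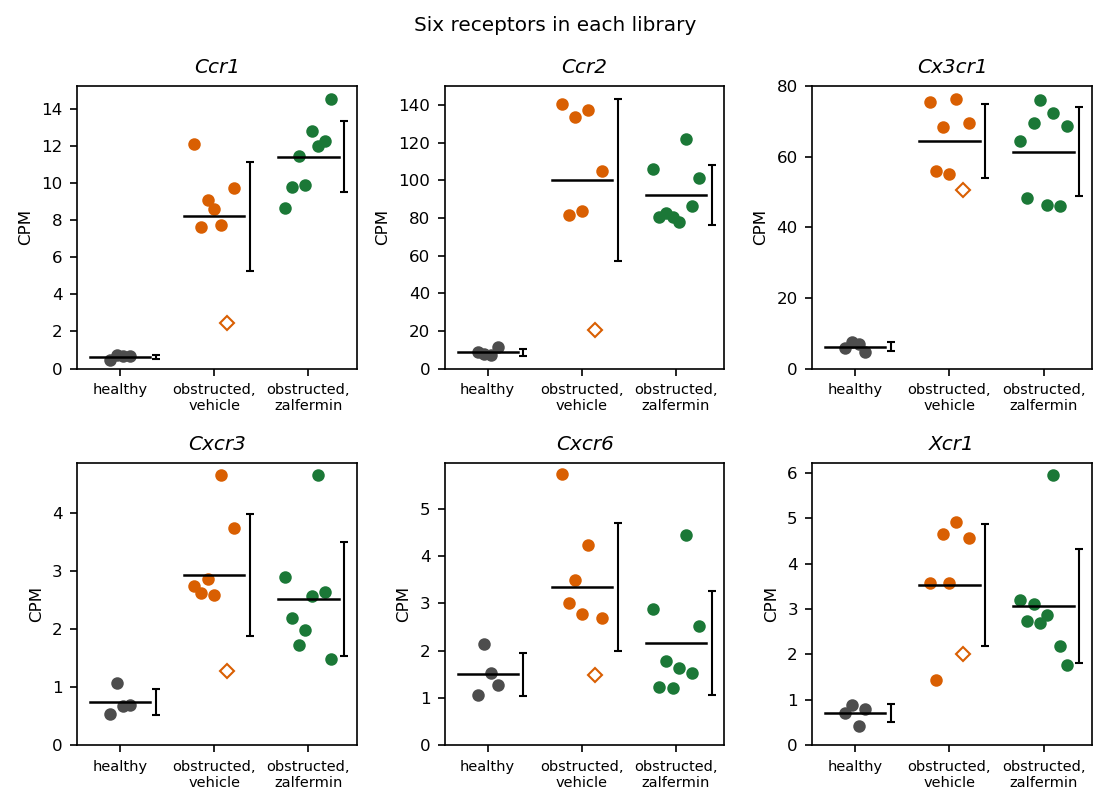
CPM of 6 receptors in each library by group, with a line for the mean and a bar for the SD; the open diamond is vehicle replicate 6. The diamond lies far below the other vehicle points for Ccr1 (2.48 CPM) and Ccr2 (20.2 CPM), which otherwise stand above every healthy point.

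Receptors of lymphocytes and dendritic cells rose too. Cxcr3, on activated T and NK cells, rose by 1.97 on the log2 scale, and Xcr1, on cross-presenting dendritic cells, by 2.33. Cxcr6, on tissue-resident T and NKT cells, rose by 1.15. Its ranges overlapped, at 1.07 to 2.13 CPM in healthy and 1.47 to 5.75 CPM in vehicle kidneys. Ccr7, which takes dendritic cells to lymph nodes, rose by 3.25. Ccr9, the gut-homing receptor and partner of Ccl25, was scarce, at or under 0.355 CPM in healthy and 0.386 to 1.21 CPM in vehicle kidneys. It rose by 2.52, or by 3.58 without healthy replicate 2. Of its annotated exon length, 18.8% overlaps a gene model on the opposite strand and 2.6% one on the same strand. Cxcr4, the broadly expressed receptor of Cxcl12, went from 1.78, 2.49, 3.37 and 0.786 CPM to 8.75, 9.84 and 12.3 CPM (lowest, median, highest) and rose by 2.25, while its ligand fell. Cxcr2, the neutrophil receptor of the Cxcl1 group, had 2 healthy reads and 0.522 to 1.86 CPM in vehicle kidneys, a ratio of 20.1 with a counting interval of 5.40 to 168. T and NK cell markers summed to 7.27 to 10.6 CPM in healthy and 24.8 to 41.4 CPM in vehicle kidneys (9 of 10 higher), and dendritic cell markers to 13.1 to 17.3 and 51.2 to 82.4 CPM (6 of 6 higher). Neutrophil markers were low, 1.43 to 2.49 and 11.7 to 26.8 CPM, with 4 of 4 tested markers higher and 2 to 6 of the 10 listed at 0 in each library. The part of these cells in the receptor rises was not tested.

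Of the atypical receptors, 1 of 3 tested was called higher. Ackr3, the scavenger of Cxcl12, stood at 89.3, 76.8, 101 and 69.2 CPM in healthy and 60.5, 70.7 and 83.0 CPM (lowest, median, highest) in vehicle kidneys, with a log2 fold change of -0.20 (SE 0.12, adjusted p = 0.166 in edgeR). By voom it was called lower (-0.29, adjusted p = 0.0361). Ccrl2, which binds chemerin without signalling, was at 3.04 to 6.83 CPM and 3.34 to 5.67 CPM, and its change of -0.21 was not called (SE 0.20, adjusted p = 0.361). Ranges of both genes overlapped between groups. Ackr2, which degrades inflammatory CC chemokines, was the exception, at or under 0.533 CPM in healthy and 0.335 to 1.21 CPM in vehicle kidneys. It rose by 2.22 (SE 0.53, adjusted p = 0.00089), or by 3.67 without healthy replicate 2, which held the highest healthy value.

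On the same per-length scale, Cx3cr1 and Ccr2 took 22.5% and 21.8% of the summed signalling receptor level in healthy kidneys, and 31.1% and 29.6% in vehicle kidneys. Cxcr4 held 18.6% in healthy kidneys, 12.5% with vehicle and 9.22% with zalfermin. The share of Ccr1 was 5.98% in vehicle and 9.39% in zalfermin kidneys.

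Many members lie in clusters of related genes (coordinates in GRCm38). With obstruction, 37 of 45 tested members and 36.2% of all tested genes were called higher. The counts by cluster below describe the loci, and an effect of position was not tested. On chromosome 11, Ccl2, Ccl7, Ccl11, Ccl12 and Ccl8 lie at chr11:82035571-82116799 and 5 of 5 rose. Farther along, Ccl5, Ccl9, Ccl6, Ccl3 and Ccl4 lie at chr11:83525778-83664683, again with 5 of 5 higher. The CXCR2 ligands Cxcl5, Cxcl3, Cxcl1 and Cxcl2 lie at chr5:90759360-90905938 (4 of 4 higher), and the CXCR3 ligands Cxcl9, Cxcl10 and Cxcl11 at chr5:92321347-92365485 (2 of 3). Receptors Ccr9, Cxcr6, Xcr1, Ccr1 and Ccr2 lie at chr9:123678439-124113557, and 5 of 5 rose. Ccl22, Cx3cl1 and Ccl17 are together at chr8:94745590-94812036, where 3 of 3 rose. Under zalfermin these last 3 genes each had a negative log2 fold change, from -0.28 to -0.85, none of them called in edgeR, while voom called all 3 lower (adjusted p 0.0083 to 0.0449) and DESeq2 called Cx3cl1.

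Zalfermin changed no member past the threshold in edgeR, while 2 other tools called a few. Against vehicle, 0 of 45 members passed an adjusted p of 0.05 in edgeR, with 0.867% of all tested genes called higher and 0.942% called lower (139 and 151 genes, or 105 and 191 under upper-quartile scaling). At an unadjusted p under 0.05 there were 10 members, 3 higher and 7 lower, where 15.5% of all genes reached that level. The count by DESeq2 was 3 lower (Ccl5, Cx3cl1 and Cxcr4). By limma-voom with quality weights it was 1 higher (Cxcl1) and 7 lower (Ccl17, Ccl22, Ccl5, Cx3cl1, Cxcl9, Cxcr4 and Cxcr6). These tools also called more of the 16026 tested genes than edgeR. DESeq2 called 260 genes higher and 342 lower, and voom 502 higher and 646 lower. The edgeR estimate was negative for 33 of the 45, with a median of -0.16 on the log2 scale against 0.01 over all genes.

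The member nearest to a call was Cx3cl1 (ENSMUSG00000031778), at 228, 270 and 336 CPM (lowest, median, highest) with zalfermin against 304, 327 and 380 CPM with vehicle. Of the 8 treated libraries, 7 lay below the lowest vehicle library. The log2 fold change was -0.28 (SE 0.074), with an edgeR p of 0.00104 and an adjusted p of 0.0535. Left-out libraries moved the adjusted p between 0.0188 and 0.121, and it passed 0.05 under relative-log scaling (0.0401), upper-quartile scaling (0.0317), DESeq2 (0.00502), voom (0.0113) and a 1 CPM filter (0.0437). It also passed without vehicle replicate 6 (0.0391), zalfermin replicate 6 (0.0482) or zalfermin replicate 8 (0.0188). Treated kidneys stayed well above the healthy level of 77.8 to 79.5 CPM. Blood endothelium markers summed to 445 to 549 CPM with vehicle and 335 to 534 CPM with zalfermin, and none of the 7 tested was called in edgeR. Treated replicate 8 was the highest treated library for both these markers (534 CPM) and Cx3cl1 (336 CPM). Vehicle replicate 6 had the highest vehicle Cx3cl1 (380 CPM), but its markers (446 CPM) were near the lowest vehicle sum. At most 1 of the 8 listed endothelial markers was at 0 in an obstructed library. Kidney epithelium markers summed to 5295 to 9289 CPM with vehicle and 5810 to 7902 CPM with zalfermin, and none of the 8 was called in edgeR. The part of either cell type was not tested.

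Ccl5 (ENSMUSG00000035042) was at 6.01, 8.75 and 13.5 CPM with zalfermin against 10.8, 13.2 and 15.4 CPM with vehicle (lowest, median, highest). Below the lowest vehicle library were 6 of 8 treated libraries, and the log2 fold change was -0.53 (SE 0.17, adjusted p = 0.123 in edgeR). The adjusted p was 0.0431 by DESeq2, 0.00728 by voom and 0.0476 without zalfermin replicate 6. Cxcr4 (ENSMUSG00000045382) was at 5.28, 7.27 and 10.1 CPM against 8.75, 9.84 and 12.3 CPM, with 7 of 8 treated libraries below the lowest vehicle library. Its log2 fold change of -0.48 (SE 0.16) had an adjusted p of 0.144 in edgeR, 0.0380 by DESeq2, 0.0214 by voom and 0.0490 in a fit of these 2 groups alone. Macrophage and monocyte markers summed to 968 to 1412 CPM with zalfermin against 1157 to 1540 CPM with vehicle, none of the 12 was called in edgeR and none was at 0 in any library. Their part in these values was not tested.

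Cxcl1 (ENSMUSG00000029380) was the other way round, at 32.2, 53.6 and 62.0 CPM with zalfermin against 18.5, 36.2 and 51.5 CPM with vehicle (lowest, median, highest). Above the highest vehicle library were 5 of 8 treated libraries, and the log2 fold change was 0.53 (SE 0.18, adjusted p = 0.148 in edgeR and 0.0294 by voom). The other CXCR2 ligands had other estimates, and the difference between genes was not tested. Cxcl2 had a log2 difference of -0.03 and Cxcl5 of 0.00, with 95% intervals of -0.39 to 0.33 and -0.33 to 0.33. For Cxcl3 the value was -0.84, or -0.28 without vehicle replicate 1.

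Both CCR4 ligands were lower in most treated kidneys. Ccl17 (ENSMUSG00000031780) was at 1.26, 2.15 and 4.52 CPM with zalfermin against 2.51, 4.01 and 4.42 CPM with vehicle (lowest, median, highest), a log2 fold change of -0.60 (SE 0.23, adjusted p = 0.216 in edgeR, 0.0449 by voom). Ccl22, named after its values were seen, was at 1.15, 1.82 and 8.63 CPM against 3.44, 4.97 and 6.56 CPM. In that gene 7 of 8 treated libraries were below every vehicle library and replicate 6, at 8.63 CPM, was above every vehicle library. The log2 fold change was -0.85 (SE 0.33, adjusted p = 0.216), and without zalfermin replicate 6 it was -1.40 (adjusted p = 0.00201 in edgeR). Dendritic cell markers summed to 51.2 to 82.4 CPM with vehicle and 41.9 to 84.2 CPM with zalfermin, and replicate 6 held the highest of these treated values. Their part was not tested.

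**Figure D4:**
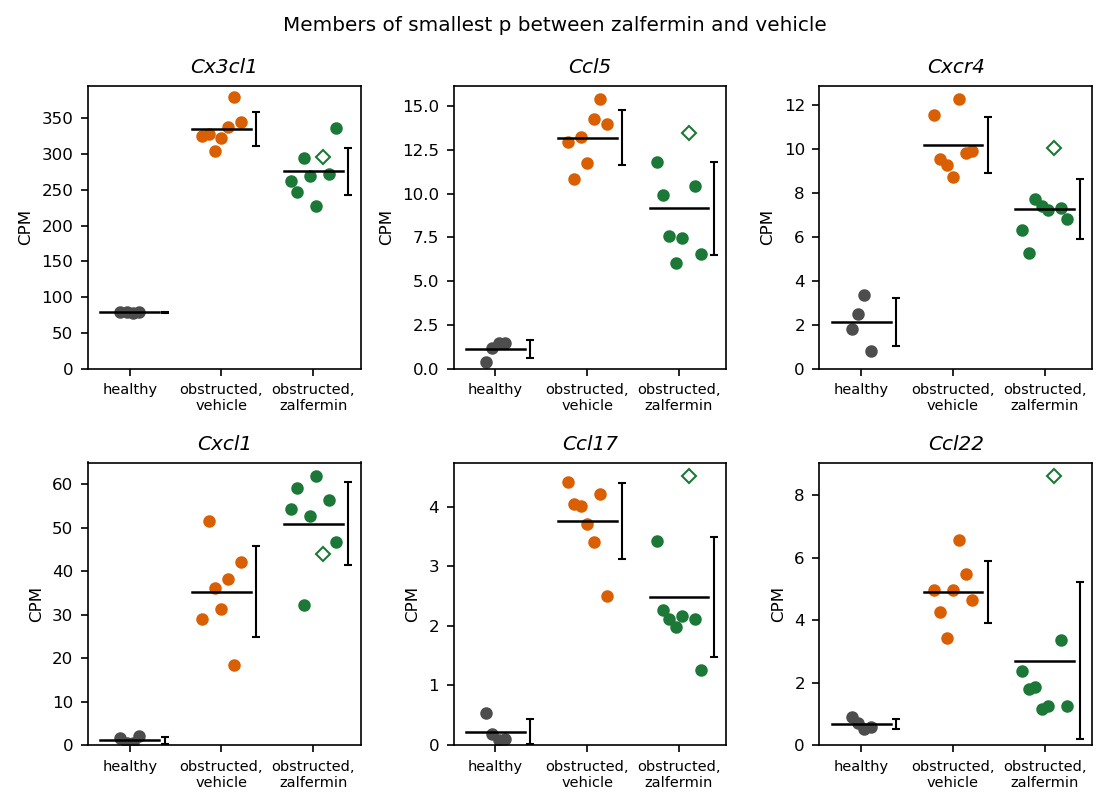
CPM of Cx3cl1, Ccl5, Cxcr4, Cxcl1, Ccl17 and Ccl22 in each library by group, with a line for the mean and a bar for the SD; the open diamond is zalfermin replicate 6. Treated points sit mostly below vehicle points for 5 genes and above them for Cxcl1, and the diamond is the highest treated point for Ccl22 at 8.63 CPM.

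Other members with an unadjusted edgeR p under 0.05 were Ccr1 (log2 fold change 0.48) and Ccl2 (0.30), both higher in treated libraries, and Cxcl14 (-0.42) and Cxcr6 (-0.63), both lower. None of the 4 passed the adjusted threshold in edgeR, and voom called Cxcr6 lower (-0.96, adjusted p = 0.0135). Ccr1 was at 8.67, 11.7 and 14.5 CPM with zalfermin against 2.48, 8.62 and 12.1 CPM with vehicle, and its estimate was 0.31 without vehicle replicate 6 (adjusted p = 0.201 in edgeR). Ccr2 had -0.12 with that library and -0.32 without it (adjusted p = 0.218). Cxcr6 was at 1.22 to 4.45 CPM with zalfermin and at 1.47 to 5.75 CPM with vehicle. Without zalfermin replicate 6, the highest treated library for Cxcr6, its estimate was -0.87 (adjusted p = 0.0896), and that of the T cell attractant Cxcl9 went from -0.49 to -0.79 (adjusted p = 0.0774). T and NK cell markers summed to 24.8 to 41.4 CPM with vehicle and to 15.1 to 22.9 CPM in 7 of the 8 treated libraries, with 42.6 CPM in replicate 6. None of the 10 markers was called under zalfermin in edgeR, and their part in the values of Ccl5, Cxcl9 and Cxcr6 was not tested.

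Some members that rose with obstruction had close to equal levels in the treated and untreated obstructed groups. Cxcl16 was at 177, 206 and 239 CPM with zalfermin against 195, 205 and 230 CPM with vehicle, a log2 difference of -0.01 with a 95% interval of -0.16 to 0.14. For Ccl9 the interval was -0.30 to 0.31, for Cxcl17 -0.36 to 0.37 and for Cx3cr1 -0.31 to 0.18. Cxcl10, at 30.3 to 59.5 CPM with zalfermin and 29.1 to 58.0 CPM with vehicle, had an interval of -0.15 to 0.46. Ccl12, a monocyte attractant, had an interval of -0.56 to 0.24. Wider intervals belonged to scarce members such as Ccl3 (-1.89 to 0.01), Xcl1 (-1.54 to 0.01), Ccl19 (-1.54 to 0.54) and Ccr7 (-1.26 to 0.32). Ccl8 had -0.60, which was 0.11 without vehicle replicate 7. Ccl7 was not among the near-equal members, with an estimate of 0.29 (interval -0.12 to 0.70, adjusted p = 0.539 in edgeR) and 7 of 8 treated libraries above the vehicle median.

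Most members also differed between treated obstructed and healthy kidneys. Against healthy libraries, 37 members were higher with zalfermin and 5 were lower, where 37.3% and 27.0% of all tested genes were called higher and lower. The ranges did not overlap for 30 members, against 29.4% of all genes on the higher side and 21.7% on the lower side. Here too, many members entered the test through the obstructed groups alone, so these counts describe them and support nothing further. The 5 lower members were Ccl28 (log2 fold change -0.82), Cxcl12 (-0.66), Ccl27a (-0.62), Ccl25 (-0.40) and Ackr3 (-0.32). The call of Ccl28 held under every alternative tried. Cxcl12 lost its call without healthy replicate 1 (adjusted p = 0.0880), Ccl27a without healthy replicate 2 or 3 (0.0528 and 0.0729), and Ackr3 without healthy replicate 1 or 3 (0.0664 and 0.142). Ccl25 lost it with no filter (0.0812) and without any 1 of 4 treated libraries (replicates 3, 5, 6 and 7, from 0.0524 to 0.0704) or 3 healthy ones (replicates 2, 3 and 4, from 0.0564 to 0.175). Not called were Ccrl2, Ccl19 and Cxcr6, the last with 0.52 (adjusted p = 0.233 in edgeR). Cxcr6 was called higher in vehicle kidneys, but zalfermin against vehicle was not called for it (-0.63, adjusted p = 0.291 in edgeR). Cxcl11 switched the other way. Not called in vehicle kidneys, it was called higher with zalfermin (0.95, adjusted p = 0.0311 in edgeR). Cxcl11 lost that call with no filter and without zalfermin replicate 1 or healthy replicate 2, 3 or 4 (adjusted p as high as 0.1145). The comparison of treated with healthy kidneys shares healthy libraries with that of vehicle kidneys and treated libraries with that of zalfermin. The 3 are therefore not independent.

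Too few reads for the fit were present for 5 members. Ccr4, the receptor of Ccl17 and Ccl22, had no healthy read and 0.0669, 0.450 and 0.771 CPM (lowest, median, highest) in vehicle kidneys, at least 5.77-fold higher. A two-sided exact permutation test gave p = 0.0121, or 0.182 adjusted over the 15 such tests. Cxcl13, the B cell attractant, averaged 0.513 ± 0.569 CPM (SD, n = 8) with zalfermin and 0.151 ± 0.148 CPM (SD, n = 7) with vehicle (exact permutation p = 0.132). Its receptor Cxcr5, the Ccl20 receptor Ccr6, and Ackr4, which scavenges Ccl19 and Ccl25, stayed at or under 0.731 CPM in every library. None of the 15 tests passed 0.05 after adjustment.

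Of the 21 matching rows under the minimum, 12 had no read. They included the lymphoid chemokines Ccl21a, Ccl21b and Ccl21c, which have near-identical copies that counting can leave unassigned. A second Ccl19 row, Ccl27 and Ccl27b were also without reads. Whether reads of Ccl19 or Ccl27a were left unassigned in this way was not tested. Rows with a few reads were Ackr1 (40), Ccl1 (29), Ccr8 (23), Ccr10 (17), Ccr1l1 (17), Ccr3 (10), Cxcr1 (3) and Cxcl15 (2), and the pseudogene Ccl19-ps1 (41). Receptors of Ccl28 and of the eosinophil attractants were thus near the limit of detection.

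Genes that act around the family moved with it under obstruction. Among chemoattractants and receptors with other names, 11 of 12 tested rose and 1 fell, Mif, a cytokine that binds CXCR2 and CXCR4. Cd74, the invariant chain and MIF receptor, averaged 1390 CPM in vehicle and 166 CPM in healthy kidneys (log2 fold change 3.07, adjusted p = 1.67e-13), and C3ar1, the receptor of complement C3a, rose by 3.82. Of 30 tested genes of receptor signalling, 27 rose and 1 fell, the adhesion kinase Ptk2b (109 to 89.5 CPM, adjusted p = 0.0051). Dock2, which drives leukocyte migration, went from 2.26 to 25.3 CPM. All 10 tested NF-kappaB and interferon factors rose, among them Relb (4.52 to 57.3 CPM) and Nfkb2 (20.7 to 120 CPM). Of 9 tested chemokine-cutting peptidases and binding partners, 7 rose, with Mmp2 going from 3.36 to 67.3 CPM and the proteoglycan Hspg2 from 91.2 to 218 CPM. Dpp4, the dipeptidyl peptidase that inactivates Cxcl12 and other chemokines, had group means of 107 CPM (healthy) and 97.4 CPM (vehicle) without a call (adjusted p = 0.392). These counts stand beside the 36.2% of all genes called higher.

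Under zalfermin, 1 of 10 tested NF-kappaB and interferon factors and 1 of 9 tested peptidases and binding partners were called in edgeR, both lower. None of the 12 chemoattractants and receptors or the 30 signalling genes was called, and 0.942% of all tested genes were called lower. The 2 calls describe single genes and not the lists. Irf7, the master factor of the type I interferon response, averaged 39.2 CPM against 54.4 CPM with vehicle (log2 fold change -0.48, SE 0.098, adjusted p = 0.0139 in edgeR). Mmp2, a gelatinase that also trims chemokines, averaged 45.2 CPM against 67.3 CPM (log2 fold change -0.57, SE 0.14, adjusted p = 0.0360). Rarres2 (chemerin), a ligand of the receptor Cmklr1, had -0.32 with an adjusted p of 0.0508.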

How the data were processed

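Mouse kidney RNA was isolated with a NucleoSpin kit and sequenced from 19 strand-marked NEBNext Ultra II libraries on a NextSeq 500, per the labels' protocols. Reads were aligned with STAR 2.7.0f to GRCm38, per the submitters' processing notes; the sources used here do not name the counting program, its strand setting or the annotation. The deposited values are whole-number read counts per gene, not normalised. They were tested with edgeR 4.0.16 in R 4.3.3: genes of low count were removed (filterByExpr, minimum count 10, minimum total 15), totals were TMM-scaled, and 1 quasi-likelihood fit of all 19 libraries gave the 3 contrasts. P-values were adjusted by Benjamini-Hochberg over all 16026 tested genes. The 5 members removed by the filter were tested by exact permutation of the group labels (two-sided).

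Per-length levels used the exon union of GENCODE M21, and promoter windows were RefSeq's (GRCm38.p6). Without a stated strand setting, reads of genes that overlap on opposite strands cannot be told apart. Alternatives were relative-log and upper-quartile scaling, DESeq2 1.42.0, limma 3.58.1 voom (quality weights), testing without a filter or with a minimum of 1 CPM in 10 libraries, fits of 2 groups, a robust fit, and leaving out each library. The fit was tested on simulated data. The smallest chi-square per degree of freedom between replicate libraries was 5.55, so none appeared to be deposited in duplicate. Full values were given for the 5 members with the smallest zalfermin p, the 3 of highest mean CPM in each role, those called lower with obstruction and those not called. Individual results of 1 member and 1 signalling gene are not reported here, though counts over the lists include them. Other members given with values were chosen after their values were seen. The members and lists were chosen with earlier results of these data known.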

Additional observations from a re-analysis of the deposited data

Results flagged for a closer look

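Of 132 sets of values (1 member in 1 group), 12 had a highest or lowest library far from the others by Dixon's criterion. Chance meets it in about 1 in 20 sets of normally distributed values. Vehicle replicate 6 was far below the other vehicle libraries for 3 members that lie on chromosome 9: Ackr2 (0.335 CPM, next 0.752), Ccr1 (2.48, next 7.64) and Ccr2 (20.2, next 81.7). Vehicle replicate 7 was far above the others for Ccl6 (64.6 CPM, next 40.6) and Ccl8 (25.7, next 8.06). Vehicle replicate 1 was low for Ccl20 (0.561 CPM, next 2.05), and zalfermin replicate 4 was low for Ccl4 (0.512 CPM, next 0.959).

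In healthy kidneys, replicate 1 was low for Ccr1 (0.445 CPM, next 0.674). The other 4 sets rest on the only healthy library with a read: Cxcl17 in replicate 2 (0.0888 CPM), Cxcl2 in replicate 4 (0.196 CPM), Cxcl5 in replicate 1 (0.0890 CPM) and Cxcr2 in replicate 2 (0.178 CPM).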

How the results depend on the processing

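The 37 members higher with obstruction were 31 to 38 over the alternatives tried, and 36 to 38 when 1 library was left out. The number of members tested also varied. It was 37 with the 1 CPM filter, which gave the low end of 31, and 50 with no filter. The 2 lower members were 1 under upper-quartile scaling and with no filter, 3 under relative-log scaling, by DESeq2 and in the fit of 2 groups (Ccl28 was added), 5 by voom, and 1 to 3 with a library left out. Against vehicle, the count of 0 higher with zalfermin was 1 by voom. The count of 0 lower was 1 under relative-log scaling, upper-quartile scaling, the 1 CPM filter and the fit of 2 groups, 3 by DESeq2 and 7 by voom, and 0 to 3 with a library left out (3 without zalfermin replicate 6). Against healthy kidneys, the 5 lower with zalfermin were 2 to 5 with a library left out. Over all genes, the zalfermin calls were 139 higher and 151 lower, but 260 and 342 by DESeq2, 502 and 646 by voom, and 242 and 275 without vehicle replicate 6.

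Reversals occurred only among uncalled differences. Between zalfermin and vehicle, Ccl9 was -0.016 under relative-log scaling, -0.029 under upper-quartile scaling, -0.016 by DESeq2, -0.13 by voom, -0.0026 with the 1 CPM filter and -0.012 in the fit of 2 groups. Cxcl5 was -0.016, -0.033, -0.016, -0.12, -0.0032 and -0.013 under the same settings. Cxcl17 was -0.0059 under relative-log scaling and by DESeq2, -0.030 under upper-quartile scaling and -0.0045 in the fit of 2 groups. Cxcl11 was -0.0031 by voom. With a library left out, the range was -0.032 to 0.28 for Ccl11, -0.30 to 0.087 for Ccl20, -0.039 to 0.10 for Ccl25, -0.24 to 0.041 for Ccl6, -0.81 to 0.11 for Ccl8 and -0.091 to 0.064 for Ccl9. It was -0.053 to 0.26 for Cxcl11, -0.14 to 0.14 for Cxcl12, -0.041 to 0.020 for Cxcl16, -0.090 to 0.14 for Cxcl17, -0.16 to 0.026 for Cxcl2 and -0.098 to 0.12 for Cxcl5. The Cxcr5 difference in CPM ranged from -0.088 to 0.029 between zalfermin and vehicle and from -0.015 to 0.15 between zalfermin and healthy. The cause was not tested.

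Depth limits the members with few healthy reads, whose fold changes have wide counting intervals. No paired analysis was possible because the labels give no replicate numbers that link samples across groups.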
